A study of Drosophila melanogaster with 29 samples.

Results

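Genes that read the dorsoventral axis of the Drosophila melanogaster embryo, or that build the mesoderm from its ventral cells, were followed in flies with too much or too little menin. Menin, encoded by Mnn1, is the fly homologue of the product of the human tumour suppressor gene MEN1. The list held 10 genes, and a gene was taken up where a spot of the embryo arrays carried its symbol and no other. The genes twi, sna, zen, tld, bap and bin met this rule with 2 spots each, 12 of the 30456 spots with a value. Each of these 6 genes also had 1 of the 13966 adult probe sets. The other listed genes (sog, rho, Mef2 and tin) were not analysed here. None of the 12 spots passed the test in any embryo comparison. Few of the 30377 spots tested did. In each single window 0% were called, and over 4 windows 0.221% were called higher and 0.0395% lower in mnn++ embryos. In adults twi was the only one of the 6 genes that differed between males and females past the threshold. Over all 13966 adult probe sets 31.7% were called higher and 32.8% lower in males.

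The maternal protein Dorsal enters the nuclei of the ventral side of the blastoderm in response to the receptor Toll. There it switches on the zygotic genes twi, a bHLH activator, and sna, a zinc-finger repressor, which together make the ventral cells mesoderm. On that side Dorsal also keeps zen and tld off, so that zen, a homeobox gene of the amnioserosa, and tld, a metalloprotease that cuts Sog and so frees the ligand Dpp, are made on the dorsal side. Later, bap, an NK homeobox gene, and bin, a forkhead gene that acts after it, specify the visceral mesoderm that becomes gut muscle. By the RefSeq annotation of the Release 6 assembly, twi lies on chromosome arm 2R, sna on 2L, zen, tld and bap on 3R and bin on 3L.

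Embryos overexpressing Mnn1 (mnn++) carried the full-length cDNA behind the UAS promoter of yeast GAL4. The controls, cntrl1 and cntrl2, carried the same driver and no such construct. Neither the driver line nor the way in which the controls differ is given in the sources used here. Embryos were collected at 2-4, 4-6, 6-8 and 2-16 h from parents kept at 25 °C for 3 to 5 days after eclosion. Each two-colour array set mnn++ against 1 control, with 1 array per dye orientation, which gave 16 arrays in 8 pairings, and 2 further arrays set cntrl1 against cntrl2 at 2-16 h. Whole adults of the same age were profiled on 11 single-colour arrays. They were mnn- flies with 2 mutant alleles (females X46_Y79 and Y79_X46, males X46_Y79, Y79_X46 and Y79_Y79), heterozygous females (X113_Y79 and X84_X46), a control of each sex (X113_X84) and a wild type (wt) of each sex. In whole embryos and whole adults, fewer cells of a type and less RNA per cell cannot be told apart.

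Arrays count no molecules, so their number limits the precision. The ratios of the embryo arrays are given on the log2 scale and signed so that values above 0 stand for more signal in mnn++ (in cntrl1, where the controls were compared). For this the sign of every deposited ratio was reversed, and the direction is likely rather than stated. It was chosen from Mnn1 itself, whose deposited ratios were below 0 on all 4 arrays of 2-16 h and which after the reversal read 0.25 to 0.84 on spot 12064 and 0.40 to 0.79 on spot 12724. Mnn1 therefore gives no check of the overexpression, and with the deposited sign every higher and lower of the embryo comparisons would change places. At the other windows the 12 arrays read -0.22 to 0.42 and -0.12 to 0.44 on those spots. In adults the Mnn1 probe set read 5.17 to 6.17 in mnn- flies (log2 intensity, 5 arrays), against 5.40 to 5.75 in the 4 non-mutant (wt and control) flies, a difference of 0.13 ± 0.10 (SE; limma adjusted p = 0.863). Within females the Mnn1 difference was 0.36 ± 0.15 (SE; limma adjusted p = 0.9996), and within males -0.094 ± 0.14 (0.936). The mutant alleles are labelled protein-null, so an RNA level does not check them. One adult array stood apart: in wt male 2 all 7 ovary and yolk genes measured were above each of the 4 other males and below each of the 6 females. Its Yp1, a yolk protein, read 11.61, against 7.31 to 7.59 in those males and 13.19 to 13.60 in females.

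The first question was whether the dorsoventral and mesoderm genes differed between mnn++ embryos and their controls over all windows. They did not pass the test on any spot. Each window gave 1 value, the mean of both dye orientations and both controls (n = 4 windows). The ventral gene twi averaged -0.061 ± 0.043 and -0.049 ± 0.044 on its spots (log2, SE), and sna 0.037 ± 0.037 and -0.024 ± 0.043. The dorsal gene zen averaged -0.072 ± 0.038 and -0.059 ± 0.035, and tld 0.078 ± 0.059 and 0.0071 ± 0.047. Of the visceral mesoderm genes, bap averaged -0.11 ± 0.041 and 0.0093 ± 0.038, and bin -0.070 ± 0.045 and 0.042 ± 0.037. Both spots had the same sign for twi, zen and tld and opposite signs for sna, bap and bin.

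Adjusted p by limma ran from 0.320 (bap spot 1791) to 0.973 for the 12 spots, and 1 of them, bap spot 1791, had an unadjusted p under 0.05. Over all 30377 spots tested, 67 were higher in mnn++ embryos (0.221%) and 12 lower (0.0395%) at an adjusted p under 0.05, and 3475 (11.4%) had an unadjusted p under 0.05. With 1 window left out these 79 calls became 2 (without 6-8 h), 15 (without 2-4 h), 18 (without 4-6 h) or 145 (without 2-16 h). The median of the member spots was -0.036, against -0.0026 over all spots. The 95% intervals of the 12 spots together spanned -0.20 to 0.21, so larger mean changes over 4 windows lay outside the interval of every spot. Against cntrl1 alone 0 spots of the whole array were called by limma, and 2100 (6.91%) had an unadjusted p under 0.05. With cntrl2 as the only control 49 were higher (0.161%) and 6 lower (0.0198%), and 3289 (10.8%) had an unadjusted p under 0.05. No member passed at an adjusted p under 0.05, and 1 member spot against cntrl1 (tld spot 26734) and 2 against cntrl2 (zen spot 2931 and bap spot 1791) had an unadjusted p under 0.05. The lowest adjusted p of a member was 0.705 against cntrl1 and 0.230 against cntrl2, on tld spot 26734 and bap spot 1791.

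**Figure D1:**
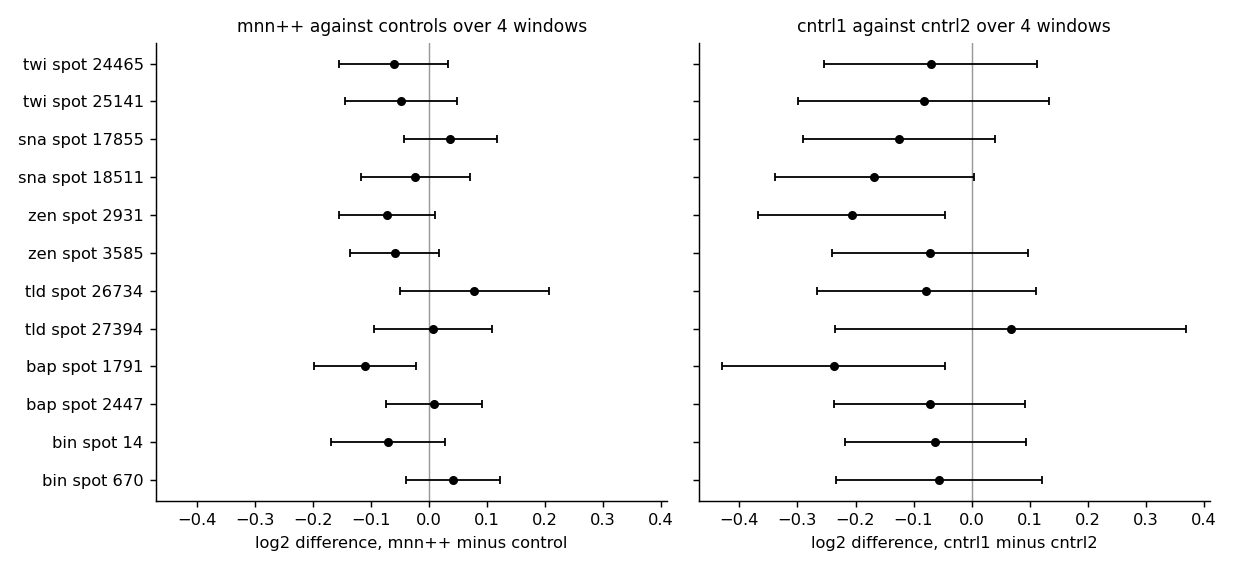
Fitted log2 differences of the 12 member spots over 4 windows (points, with bars for 95% intervals from the limma fits, n = 4 windows): mnn++ minus control at the left, cntrl1 minus cntrl2 at the right. At the left the estimates sit between -0.11 and 0.078. At the right 11 of 12 lie below 0, with wider intervals.

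The pairings were then read window by window, starting with 2-4 h, when the ventral genes are first transcribed. Against cntrl2, twi read lower in mnn++ embryos on every array of this window. Spot 24465 had log2 ratios of -0.17 and -0.58 with mnn++ in Cy3 and in Cy5, and spot 25141 had -0.29 and -0.57. The mean of both spots was -0.40, a ratio of 0.757. Against cntrl1 in the same window the orientations fell on opposite sides of 0, at 0.094 and -0.22 on spot 24465 and at 0.25 and -0.25 on spot 25141, with a mean of -0.031. In the later windows the gene means of twi stayed near 0 against both controls. They were -0.0052 and 0.037 at 4-6 h, -0.026 and -0.015 at 6-8 h, and -0.0045 and 0.0067 at 2-16 h (cntrl1, then cntrl2). In each of these pairings the means of its spots had opposite signs. At 4-6 h spots 24465 and 25141 averaged 0.0745 and -0.085 against cntrl1, and -0.088 and 0.1625 against cntrl2.

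The dorsal gene tld had the next lowest gene mean against cntrl2 at 2-4 h, -0.30. Its spot 27394 read -0.033 and -0.65, and its spot 26734 read 0.090 and -0.61, so the low value came from the Cy5 array on both. Against cntrl1 those spots read 0.47 and -0.13, and 0.36 and -0.28. The orientations of tld in this window thus differed by more than its mean ratio against either control. The values of zen and sna against cntrl2 were smaller and agreed better between orientations. Against cntrl2, zen read -0.28 and -0.17 on spot 2931 and -0.17 and -0.18 on spot 3585, and sna -0.097 and -0.23 on spot 17855 and -0.20 on both arrays of spot 18511. Against cntrl1 the means of zen and sna were 0.021 and 0.097. The orientations there fell on opposite sides of 0 on zen spots 2931 (-0.069 and 0.137) and 3585 (0.038 and -0.022). They did so on sna spot 18511 (0.206 and -0.061) but not on sna spot 17855 (0.206 and 0.036). The visceral mesoderm genes had means against cntrl2 of -0.097 (bap) and -0.018 (bin), and their spots disagreed in sign. Against cntrl1 the means were -0.068 (bap) and -0.113 (bin), and the bin spots averaged -0.127 and -0.099.

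Both arrays lay below 0 against cntrl2 at 2-4 h for 8 of the 12 spots, those of twi, sna and zen, spot 27394 of tld and spot 1791 of bap, against 24.4% of all spots. None was above 0 on both arrays, against 22.9% of all spots. Against cntrl1 in that window 2 were below 0 on both arrays (19.1% of all spots) and 1 above (16.7%). The member spots had a median absolute log2 ratio of 0.21 against cntrl2, with 0.091 over the whole array, and of 0.069 against cntrl1, with 0.065 over the whole array. With both controls together the test did not call any member at 2-4 h. The fitted difference of twi was -0.22 ± 0.083 on spot 24465 (SE, 2 controls; limma adjusted p = 0.647) and -0.21 ± 0.10 on spot 25141 (0.690). That of bap spot 1791 was -0.21 ± 0.11 (0.710). This bap spot was the only 1 of the 12 below 0 on all 4 arrays of the window, against 5.71% of all spots. On all 4 arrays 0 member spots were above 0, against 5.07% of all spots. In this window 0 of 30377 spots were called (0%), 2226 (7.33%) had an unadjusted p under 0.05, twi spot 24465 among them, and 1 spot was called with robust eBayes. The only spread in the fit of a window is the difference between the 2 controls, and where arrays shared mnn++ RNA its own spread is left out.

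**Figure D2:**
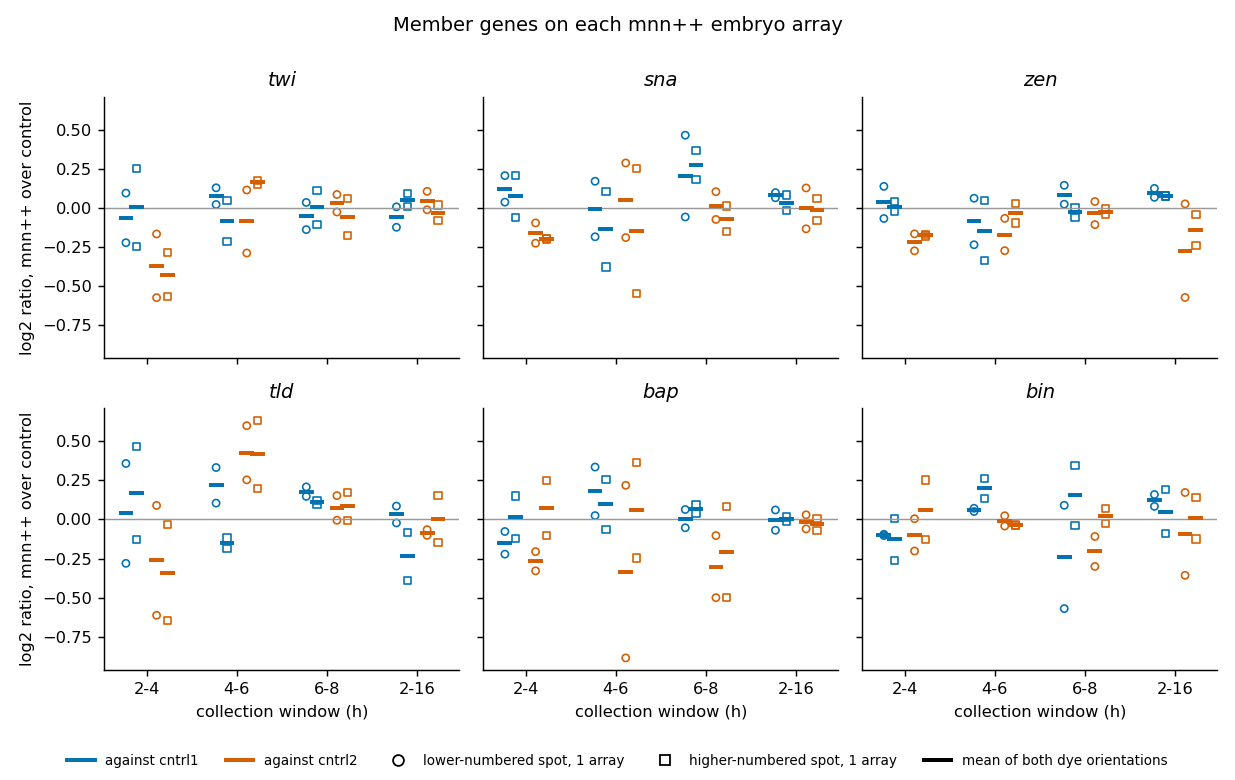
Log2 ratio of mnn++ over control for the 6 genes by collection window (h). Open symbols are single arrays (circles and squares for the spots with the lower and the higher number), thick lines the mean of both dye orientations, blue against cntrl1 and orange against cntrl2. The 4 twi values against cntrl2 at 2-4 h lie between -0.58 and -0.17, and the 4 tld values against cntrl2 at 4-6 h between 0.20 and 0.64.

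Some other gene lists, early and late, also lay off 0 in the same pairing. Of the 11 dorsal ectoderm and Dpp pathway genes measured, 11 were below 0 against cntrl2 at 2-4 h (median -0.12, lowest tok at -0.23, a relative of tld, and tsg at -0.21, which helps carry Dpp), and 7 of 11 were below 0 against cntrl1 (median -0.0078). Of 5 genes that act during cellularization, just before gastrulation, 4 were below 0 against cntrl2, with slam at -0.53, halo at -0.47, nullo at -0.42 and bnk at -0.35. Against cntrl1 all 5 were below 0, with slam at -0.084, halo at -0.10, nullo at -0.15 and bnk at -0.19. Sarcomere genes lay on the other side of 0 against cntrl2: 9 of 9 were above 0 (median 0.26), led by Mlc2 at 1.12, Mlc1 at 0.69 and Tm2 at 0.66, which code for myosin light chains and a tropomyosin. Against cntrl1 8 of 9 were below 0 (median -0.032). Of the late cuticle and epidermis genes, 5 of 6 were above 0 against cntrl2 (median 0.14). Over all 10841 genes 49.9% were below 0 against cntrl2 and 51.1% against cntrl1. The part of these early and late markers in the values of twi, zen, sna and tld was not tested.

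**Figure D3:**
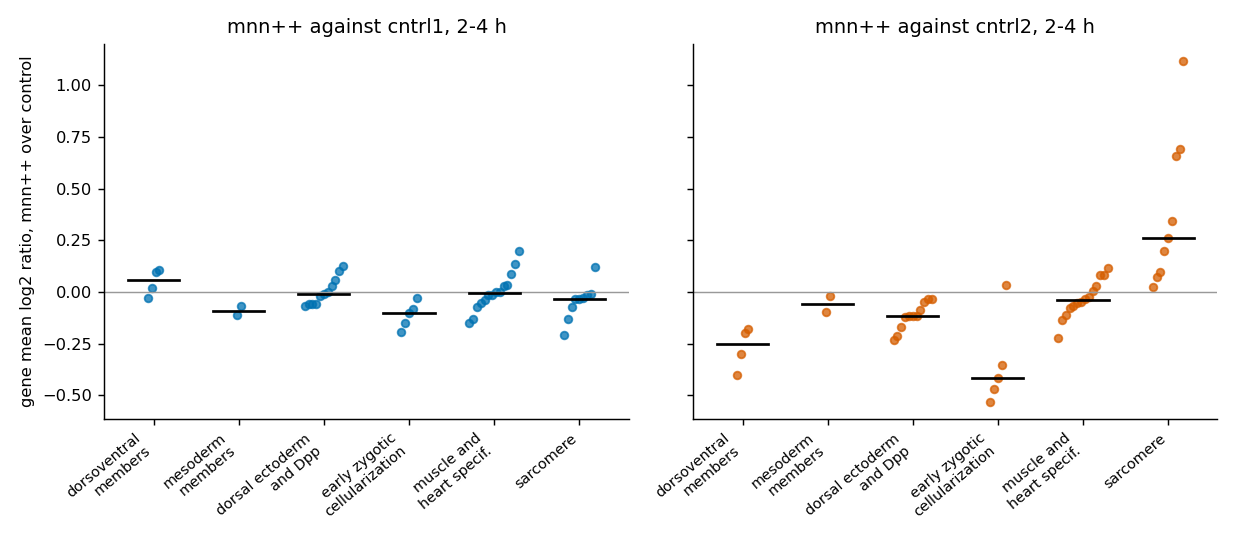
Gene mean log2 ratios of mnn++ over control at 2-4 h for the members in 2 groups and 4 other lists (points are genes, bars the list medians), against cntrl1 at the left and cntrl2 at the right. Against cntrl2 the 4 dorsoventral members have a median of -0.25 and the 9 sarcomere genes one of 0.26, against 0.059 and -0.032 with cntrl1.

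Other marker lists lay nearer 0 in that pairing. The medians against cntrl2 at 2-4 h were 0.027 for 7 maternal and ovary genes, 0.040 for 4 neuronal genes, 0.050 for 3 testis genes and -0.0006 for 4 adult gut genes. Against cntrl1 they were -0.019, -0.017, -0.046 and -0.13. Of the pathway lists, 6 neurogenic ectoderm and mesectoderm genes had a median of -0.080 against cntrl2 and -0.015 against cntrl1. For 5 gastrulation and mesoderm spreading genes the medians were -0.028 and 0.062. For 14 muscle and heart specification genes they were -0.040 and -0.0070, and for 11 maternal dorsal group genes -0.0005 and -0.0065.

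At 4-6 h, during germband extension, tld was the member with the highest values against cntrl2. Against cntrl2 its spots read 0.25 and 0.60 (26734) and 0.20 and 0.64 (27394) with mnn++ in Cy3 and in Cy5, a mean of 0.42 or a ratio of 1.34. Against cntrl1 the spots parted, at 0.105 and 0.33 on spot 26734 and -0.19 and -0.12 on spot 27394, with a gene mean of 0.0335. Spot 26734 was thus above 0 on all 4 arrays of the window, which held for 1 of 12 member spots and for 4.8% of all spots. Both arrays of a pairing were above 0 on 5 member spots against cntrl1 (21.1% of all spots) and 3 against cntrl2 (21.8%), and below 0 on 1 (20.8%) and 2 (25%). Its fitted difference was 0.32 ± 0.086 (SE, 2 controls; unadjusted p = 0.0036, limma adjusted p = 0.370), and that of spot 27394 was 0.13 ± 0.14 (0.774). The same gene read -0.30 against cntrl2 at 2-4 h and 0.079 at 6-8 h.

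The remaining members were smaller than tld against cntrl2 at 4-6 h, while bap and bin had higher means than tld against cntrl1. Gene means against cntrl1 and against cntrl2 were -0.073 and -0.051 for sna, -0.12 and -0.10 for zen, 0.14 and -0.14 for bap, and 0.13 and -0.023 for bin. A single array weighed on bap: spot 1791 read -0.89 against cntrl2 with mnn++ in Cy3 and 0.22 in Cy5. In this window 0 of 30377 spots were called (0%), by limma and with robust eBayes, and 3125 (10.3%) had an unadjusted p under 0.05. The lowest adjusted p of a member was that of tld spot 26734.

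At 6-8 h, when the visceral mesoderm forms, the spots of bin disagreed. Spot 14 read -0.57 and 0.091 against cntrl1 and -0.30 and -0.11 against cntrl2, a fitted difference of -0.22 ± 0.070 (SE, 2 controls; limma adjusted p = 0.913). Spot 670 read -0.038 and 0.35 against cntrl1 and 0.070 and -0.026 against cntrl2, and its fitted difference was 0.089 ± 0.079. The gene bap read -0.50 and -0.10 against cntrl2 on spot 1791 and -0.50 and 0.085 on spot 2447, with a mean of -0.25 against cntrl2 and 0.037 against cntrl1. The gene sna had its highest mean here, 0.24 against cntrl1, from -0.059 and 0.465 on spot 17855 and 0.18 and 0.37 on spot 18511, and -0.028 against cntrl2. Both arrays of a pairing were above 0 on 5 member spots against cntrl1 (20.3% of all spots) and none against cntrl2 (21.6%), and below 0 on none (19.9%) and 3 (22.1%). None of the 12 spots had all 4 arrays on 1 side of 0, against 5.05% of all spots with all below and 5.44% with all above. In this window 0 of 30377 spots were called by limma (0%), 1588 (5.23%) had an unadjusted p under 0.05, bin spot 14 among them, and 0 were called with robust eBayes.

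In the pooled collection of 2-16 h the members were closest to 0. Their median absolute log2 ratio was 0.055 against cntrl1 and 0.032 against cntrl2, where all spots had 0.051 and 0.064. Both arrays of a pairing were above 0 on 5 member spots against cntrl1 (16.8% of all spots) and none against cntrl2 (21.8%), and below 0 on 1 (16%) and 2 (20%). The largest gene mean was that of zen, -0.21 against cntrl2, to which 1 array contributed -0.575 on spot 2931, and 0.086 against cntrl1. Here too 0 of 30377 spots were called by limma (0%), 814 (2.68%) had an unadjusted p under 0.05, none of them a member, and 0 were called with robust eBayes. An F test over the 3 windows of 2-4, 4-6 and 6-8 h gave 0 calls among 30377 spots (0%), with 1273 (4.19%) at an unadjusted p under 0.05. The largest F of a member was 6.38 for tld spot 26734, with an unadjusted p of 0.016 and an adjusted p of 0.964, and twi had F of 2.10 and 1.72 (both adjusted p 0.964).

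Since several values appeared against 1 control, the controls were set against each other. Through the mnn++ RNA of each window, cntrl1 read lower than cntrl2 on 11 of 12 member spots over 4 windows, with a median of -0.075 (over all spots -0.0039, and 50.71% of all genes below 0), and none passed the test (limma adjusted p 0.537 to 0.946). The lowest were bap spot 1791 at -0.24 ± 0.087 and zen spot 2931 at -0.21 ± 0.073 (SE, n = 4 windows), the 2 members with an unadjusted p under 0.05, as 2330 of all spots had (7.67%). At an adjusted p under 0.05 11 were higher in cntrl1 (0.0362%) and 1 lower (0.00329%). At 2-4 h the difference was -0.31 and -0.43 for twi, -0.28 and -0.27 for sna, -0.26 and -0.18 for zen, and -0.30 and -0.51 for tld. At 4-6 h it was 0.21 and 0.57 for tld. These differences share their arrays with the ratios above.

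The direct arrays gave a separate reading of the controls at 2-16 h. There sna was higher in cntrl1 on every array, with log2 ratios of 0.25 and 0.265 on spot 17855 and of 0.22 and 0.20 on spot 18511 (cntrl1 in Cy3 and in Cy5). Through mnn++ RNA the same difference came out at -0.085 and -0.044. The gene bin read 0.12 and 0.20 directly, against -0.21 and -0.042 through mnn++, and zen -0.20 and 0.020 directly, against -0.37 and -0.22. For twi, tld and bap the direct means were 0.022, 0.093 and -0.016. Both direct arrays were above 0 for 3 of 12 spots, the 2 of sna and spot 670 of bin, against 20.7% of all spots, and below 0 for 1, spot 2931 of zen, against 19.5%. The absolute gap between the direct and the indirect difference had a median of 0.15 over the member spots and a largest value of 0.34 (sna spot 17855), against a median of 0.092 over all spots. Over all spots the direct and the indirect differences correlated with r = 0.30.

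**Figure D4:**
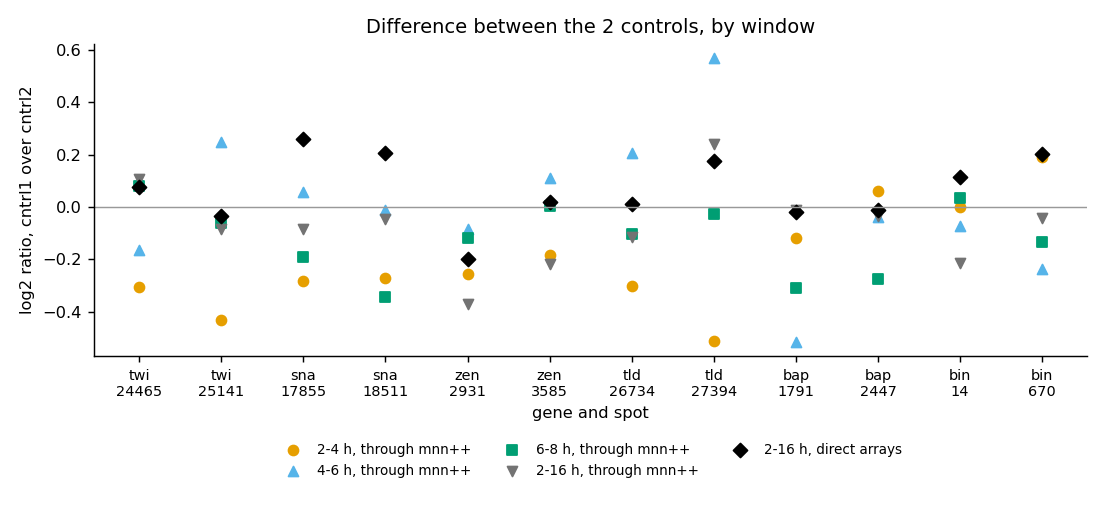
Log2 ratio of cntrl1 over cntrl2 for each member spot, worked out through mnn++ RNA in each window (coloured and grey symbols) and read on the direct arrays of 2-16 h (black diamonds, mean of 2 dye orientations). At 2-4 h the twi, sna, zen and tld spots lie between -0.51 and -0.18. For sna the direct values, 0.26 and 0.21, lie on the other side of 0.

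How far a ratio of one spot can be trusted shows in the repeats within the arrays. The spots of a gene differed by a median of 0.089 for twi, 0.052 for sna, 0.059 for zen, 0.088 for tld, 0.083 for bap and 0.10 for bin over the 9 pairings, against 0.078 over all 9507 genes with 2 spots. The 2 orientations of a pairing differed by a median of 0.18 on the member spots and 0.19 on all spots, with the widest member gap, 1.11, on bap. At 4-6 h the member medians were 0.28 against cntrl1 and 0.38 against cntrl2, where all spots had 0.20 and 0.23. At 2-4 h they were 0.27 and 0.245 (all spots 0.20 and 0.20). At 6-8 h they were 0.15 and 0.17 (all spots 0.175 and 0.205), and at 2-16 h 0.091 and 0.17 (all spots 0.18 and 0.17). On the direct control arrays the member median was 0.090, against 0.16 over all spots. By gene, tld and bin had the largest medians, 0.265 and 0.24. Between arrays, ratios of the same dye orientation correlated with a median r of 0.33 across spots and those of opposite orientation with one of -0.25, a dye effect that cancels in the mean of both. The 2 arrays of one pairing correlated with a median r of -0.21 (-0.52 to 0.11), so single arrays did not repeat each other across spots.

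The member spot with the widest range over the 8 pairings of mnn++ was tld spot 27394, at 0.76. The other tld spot followed it with r = 0.722 over the 8 pairings. The 5 spots of other genes closest to it were those of bug (r = 0.984), CG7829 (0.977), CG8944 (0.968), Or59c (0.964) and CG14505 (0.955), picked from all spots that name another single gene. The 8 points share mnn++ RNA within windows and the control stocks across them, so these are descriptions.

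The rest of the pathway was read over 4 windows. Upstream, 11 genes of the maternal dorsal group were measured, and 1 of them passed the test against both controls together, on 1 of its 2 spots. This was Tl, the Toll receptor, at a mean of -0.37 over its 2 spots (limma adjusted p = 0.0343 on one and 0.0525 on the other). With a single control it did not pass, at -0.11 against cntrl1 (lowest adjusted p 0.763) and -0.63 against cntrl2 (0.162). Its mean was -1.37 against cntrl2 at 2-4 h, 0.017 against cntrl1 in that window, and -0.22 on the direct cntrl1 against cntrl2 arrays. The other maternal genes with the largest values were pll at 0.086, spz at 0.047 and snk at 0.044, a kinase, the Toll ligand and a protease of its activation. Among 11 dorsal ectoderm and Dpp genes 0 passed and 11 were below 0 (median -0.026), where 50.4% of all 10841 genes were below 0. The largest were tup at -0.10, tok at -0.069 and Ance at -0.065.

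Downstream and lateral lists had 0 members past the threshold. In the neurogenic ectoderm and mesectoderm 3 of 6 genes were below 0 (median -0.0065), with ind at -0.091 and Dr at -0.065, homeobox genes of neighbouring columns of the nerve cord. Of 5 gastrulation and mesoderm spreading genes 3 were below 0 (median -0.020), with Traf4 at -0.090. Of 14 muscle and heart specification genes 6 were below 0 (median 0.0055), with slou at 0.046 and lbe at 0.045, identity genes of single muscles. Of 9 sarcomere genes 3 were below 0 (median 0.019), with Mlc2 at 0.11 and bt at -0.077.

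In adults, the question was whether the embryonic patterning genes differed by sex. The gene twi was higher in males. Its probe set read 6.33 (wt), 6.36 (control), 6.32, 6.19 and 6.19 (mnn-) in the 5 males, against a lowest value of 5.97, a median of 6.07 and a highest of 6.17 in the 6 females (log2 RMA intensity). Every male lay above every female, which held for 25.6% of all probe sets. The means were 6.28 ± 0.082 in males (SD, n = 5) and 6.08 ± 0.070 in females (SD, n = 6). The fitted difference, averaged over non-mutant and mnn- flies, was 0.22 ± 0.065 (SE; limma adjusted p = 0.0096). Over all 13966 probe sets 4431 were higher in males (31.7%) and 4582 lower (32.8%), so a call by sex was common on these arrays.

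Without wt male 2 the difference of twi was 0.23 (adjusted p = 0.0165), and without both wt arrays it was 0.21 and did not pass (0.0547). Among non-mutant flies twi differed by 0.33 ± 0.096 between males and females (SE; limma adjusted p = 0.0121), where 24.7% of all probe sets were called higher and 28.7% lower. Among mnn- flies it differed by 0.12 ± 0.087 (0.284), where 28.1% were called higher and 30.4% lower, and the test of the difference between these did not pass (adjusted p = 0.992). The sexes also differed in what tissues they hold. All 10 sarcomere genes were higher in males (median 1.10, summed intensity 6423.5 to 8862.2 in males and 2837.8 to 4778.3 in females). All 7 ovary and yolk genes were lower in males (median -4.67, summed intensity 477.7 to 6864.7 in males and 19609.6 to 31604.4 in females). All 6 testis genes were above 0, and limma called 5 of the 6 higher in males. The part of these tissues in the twi difference was not tested.

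The other 5 genes did not pass by sex, and their males and females overlapped. Over all probe sets 31.7% were called higher and 32.8% lower in males. Every male lay above every female for 25.6% of all probe sets, and below every female for 29.8%. The mean of bap was 6.35 ± 0.083 in males and 6.27 ± 0.11 in females, a fitted difference of 0.13 ± 0.071 (SE; adjusted p = 0.129). For bin the means were 6.11 ± 0.062 and 6.04 ± 0.063 (males, then females), for zen 7.05 ± 0.11 and 7.04 ± 0.062, for tld 3.46 ± 0.069 and 3.43 ± 0.045, and for sna 4.39 ± 0.076 and 4.39 ± 0.16 (SD, n = 5 and 6). The levels of tld and sna lay below every array median (5.465 to 5.534), and whether they stood above background was not tested. The fitted differences of the 5 genes ran from -0.0097 (sna) to 0.13 (bap), with 95% intervals between -0.21 and 0.29. With the values quantile normalized again, zen, bap and bin passed (0.19, 0.24 and 0.15 higher in males, adjusted p 0.0268, 0.0084 and 0.0487) and tld turned to -0.13. That step moved the median of all probe sets from 0.033 to -0.022. Without control male 6, bap passed as well (0.19, adjusted p = 0.0397).

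**Figure D5:**
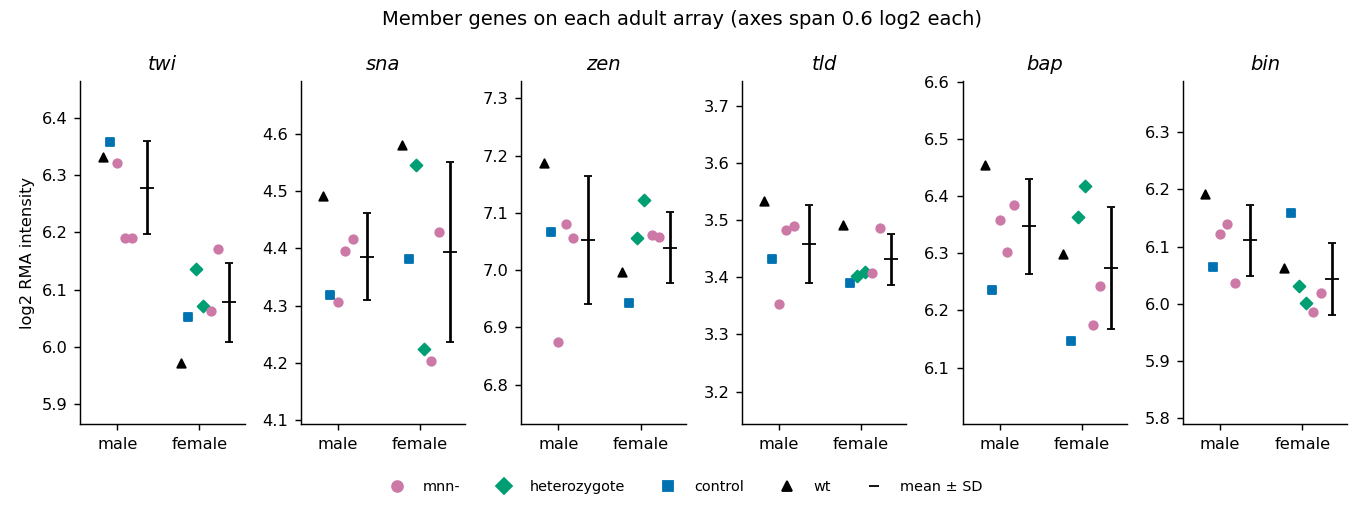
Log2 RMA intensity of the 6 genes on each adult array, males left of females, with symbols for genotype and the mean ± SD of each sex (n = 5 males and 6 females). Each axis spans 0.6 on the log2 scale and starts above 0. For twi the lowest male, 6.19, lies above the highest female, 6.17, and for the other genes the sexes overlap.

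Other pathway genes were set beside the members. Among 12 maternal dorsal group genes limma called 8 lower and 2 higher in males, with Tl at -3.03. Of 11 dorsal ectoderm and Dpp genes 5 were called higher and 0 lower, and of 6 neurogenic genes 3 higher and 0 lower. Of 14 muscle and heart specification genes 6 were called higher and 0 lower, and of 5 gastrulation genes 1 higher and 2 lower. Over all probe sets 31.7% were called higher and 32.8% lower. By sign alone 3 of 12, 8 of 11, 6 of 6, 11 of 14 and 1 of 5 genes of these lists were above 0. Over all 10843 genes 46.25% were below 0.

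Loss of menin was the last comparison. All 6 genes had fitted differences below 0 between mnn- and non-mutant adults, from -0.098 ± 0.091 for sna to -0.0028 ± 0.065 for twi (SE), where 51.5% of all genes were below 0. None passed (limma adjusted p 0.895 to 0.997), and 0 of the 6 had an unadjusted p under 0.05. The 95% intervals spanned -0.30 to 0.15. Without wt male 2, which belongs to the non-mutant flies, tld, zen and bap turned to 0.0087, 0.013 and 0.049, and sna, bin and twi read -0.055, -0.037 and -0.0093. Over all probe sets 0 were higher in mnn- flies (0%) and 5 lower (0.0358%), with 1021 (7.31%) at an unadjusted p under 0.05. Within females the differences ran from -0.16 (sna) to 0.11 (twi), and within males from -0.12 (zen) to 0.0028 (bap). Of the pathway and marker lists 0 genes passed. Some tissue markers lay further from 0 than the members. All 6 adult gut genes were below 0 (median -0.87), with a summed intensity of 14478.5 to 19106.7 in mnn- and 19036.9 to 20061.6 in non-mutant males, and of 12263.7 to 12279.4 in mnn- and 15232.5 to 15516.8 in non-mutant females. Of 7 ovary and yolk genes 6 were below 0 (median -0.87), with a summed intensity of 477.7 to 547.0 in mnn- and 484.9 to 6864.7 in non-mutant males, wt male 2 being the highest, and of 25328.3 to 25729.7 in mnn- and 22536.6 to 31604.4 in non-mutant females. The part of these tissues in the values of the 6 genes was not tested. The members that differed most, sna and bin at -0.098 and -0.069, differed by about their SE, and the levels of sna lay below the array medians.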

How the data were processed

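The deposited embryo values are log2 ratios of the RNAs of an array, made by the authors, and the submitters' processing notes name limma 2.12.0 for them. No header states their base or sign, and log2 was assumed. Swapped arrays had already been turned by the authors: in the deposited sign, spot 12320 read -3.38 to -1.65 on the 10 arrays with cntrl2, whichever dye it carried. The sign of all ratios was then reversed here, so that Mnn1 reads higher in mnn++ at 2-16 h. The deposited adult values are log2 intensities made with RMA in affy 2.12.0, per the same notes. Adult genotypes follow the titles, since the free-text description calls all 11 arrays mutant. Of 31464 spots 1008 were empty and 79 missing on some array, which left 30377. Of 14010 probe sets 44 AFFX controls were left out. No value was imputed. Names came from the platform annotation, updated through RefSeq for 24212 spots and 12393 probe sets. Array medians were -0.011 to 0.015 (embryo) and 5.465 to 5.534 (adult).

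Tests used limma 3.58.1 (lmFit, eBayes, two-sided) in R 4.3.3, Benjamini-Hochberg over all features, adjusted p under 0.05, and were tested on simulated data. Dye pairs counted as 1 value. A window's fit used 8 pairings. Adult fits had a level per sex and genotype class, with wt and control pooled. Nothing says that arrays came from separate cultures, so p-values measure only the spread between these samples, which may be technical. All spots and probe sets of the members are named, and at most 4 genes of any other list, those with the largest values. The members and lists were chosen with earlier results of these data known. Alternatives were arrays entered singly, other scalings, robust eBayes, averaged spots, single controls and left-out arrays or windows.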

Additional observations from a re-analysis of the deposited data

Results flagged for a closer look

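One value of the members lay far from the rest of its group. The window means of twi spot 24465 for mnn++ against controls were -0.22 at 2-4 h and between -0.012 and -0.0067 at the other windows. This was 1 of 36 groups examined, and chance alone marks about 1 in 20.

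In 5 of 72 pairs of windows, a spot had both arrays of one window on one side of 0 and both arrays of the other on the opposite side, a pattern that 7.61% of such pairs show over all spots. Against cntrl2, 4-6 h minus 2-4 h was 0.59 for twi spot 25141 and 0.76 for tld spot 27394. Against cntrl1, 4-6 h minus 2-4 h was 0.33 for bap spot 1791 and 0.16 for bin spot 14, and 6-8 h minus 4-6 h was 0.26 for tld spot 27394. These differences between windows were not tested one by one.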

How the results depend on the processing

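Of 632 values of the members under alternatives, 573 kept their direction and their side of the threshold, 1 lost it, 4 gained it and 54 changed sign. The cause was not tested. None of the 54 passed before or after, and the largest had a value of 0.11 as first fitted. None of the 432 embryo values passed, and the lowest adjusted p was 0.180. The call of twi by sex held in 16 of 17 alternatives (adjusted p 0.000597 to 0.0547), and was lost without both wt arrays.

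For mnn++ over 4 windows, bap spot 2447 became -0.0069 with equal MAD, -0.0082 with quantile normalization, -0.051 with spots averaged per gene and -0.027 with cntrl2 alone. Averaged spots gave -0.014 for bin spot 670 and 0.0064 for sna spot 18511. With cntrl1 alone bap spot 1791 read 0.0081, zen spot 2931 0.031, sna spot 18511 0.060 and tld spot 27394 -0.027, and with cntrl2 alone sna spot 17855 read -0.026. With a window left out, values ran from -0.014 to 0.036 for bap spot 2447, -0.078 to 0.0063 for twi spot 25141, -0.066 to 0.016 for sna spot 18511, -0.0037 to 0.14 for tld spot 26734 and -0.035 to 0.048 for tld spot 27394. For cntrl1 against cntrl2, averaged spots gave -0.0052 for tld spot 27394, and with a window left out the values ran from -0.13 to 0.0083 and -0.19 to 0.034 for twi spots 24465 and 25141, -0.14 to 0.0052 for bin spot 670 and -0.099 to 0.26 for tld spot 27394. At 4-6 h twi spot 24465 became 0.013 with equal MAD and 0.015 with quantile normalization.

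In adults by sex, tld became -0.13 when quantile normalized again, and with an array left out sna ran from -0.066 to 0.047 and tld from -0.0071 to 0.044. For mnn- against non-mutant flies, quantile normalization gave 0.0014 for twi and 0.0012 for bap. Without wt arrays tld read 0.034, zen 0.027 and bap 0.087, and without control arrays twi read 0.024. With 1 array left out the ranges were -0.042 to 0.0088 for tld, -0.060 to 0.049 for bap, -0.046 to 0.016 for zen and -0.030 to 0.024 for twi.

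Counts over all features moved more. The 79 spots called over 4 windows became 0 with arrays entered singly and 0 with cntrl1 alone, and 2 to 145 with a window left out (2 without 6-8 h, 15 without 2-4 h, 18 without 4-6 h and 145 without 2-16 h). The 12 between controls became 97 with arrays entered singly, 4 with averaged spots and 3 to 83 with a window left out (3 without 6-8 h, 5 without 4-6 h, 7 without 2-4 h and 83 without 2-16 h). At 2-4 h robust eBayes gave 1. At 6-8 h arrays entered singly gave 8, equal MAD 2 and quantile normalization 3, and at 2-16 h arrays entered singly gave 3. By sex 9013 became 5292 with dim probe sets left out. For mnn- flies 5 became 2 when quantile normalized again, 2 with additive terms, 22 without wt arrays, 212 without control arrays and 2 to 54 with 1 array left out (2 without wt female 1, 3 without either mnn- female or mnn- male 10, 8 without mnn- male 11, 16 without mnn- male 9, 17 without wt male 2, 41 without control male 6 and 54 without control female 3).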
